A study of Mus musculus with 9 samples.

Results

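The vertebrate neuromuscular junction depends on a small set of proteins in the muscle fiber, and the 10 genes described here encode them: the nicotinic acetylcholine receptor subunits Chrna1, Chrnb1, Chrnd, Chrne and Chrng, the receptor-clustering proteins Musk, Rapsn and Dok7, and the esterase Ache with its collagen tail Colq. They were taken by gene name, with earlier results of these data known. All 10 were found, with 16 transcripts between them, among the 24537 gene names and 35745 transcripts of the table that sets quadriceps beside heart. A smaller table that sets quadriceps after aortic banding beside sham quadriceps lists 587 genes, of which Ache and Colq were 2.

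At the junction, acetylcholine released by the motor nerve opens a ring of receptor subunits in the fiber membrane and is then split by acetylcholinesterase, which Colq anchors in the synaptic basal lamina. The nerve also releases agrin, which binds Lrp4 and so turns on the kinase MuSK, Dok-7 is the cytoplasmic activator of MuSK, and rapsyn ties the receptors into a dense cluster. Adult fibers use the epsilon subunit, whereas the gamma subunit belongs to the fetal receptor. Cardiac muscle has no such junction and takes its cholinergic input mainly through muscarinic receptors.

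RNA sequencing covered 9 libraries in groups of 3: sham heart, sham quadriceps, and quadriceps after transverse aortic constriction (TAC), a banding of the aortic arch over a 27-gauge needle that puts the left ventricle under pressure. All were male C57Bl6 mice (C57Bl/6JCrl in the methods of the study), given 8 weeks as the age at surgery, and tissue was taken 12 weeks after the TAC or sham operation, so that every heart library and every control quadriceps library came from a sham-operated mouse. The sample titles of the TAC group name cachexia (TACKachexie), and the study used long-term TAC to model heart failure together with cachexia. The p-values below take the library as the unit, with 3 in a group, and judge a group difference against variation between libraries. The sham quadriceps libraries served both comparisons, with heart and with TAC quadriceps, so that these are not independent of each other.

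Library totals were 33102826 to 38382751 counts in sham heart, 23383452 to 32989108 in sham quadriceps and 48614494 and 48999600 in TAC libraries 1 and 2. The counts on the genes listed for TAC were 689630 to 1006148 in sham and 1166978 to 1326011 in TAC quadriceps, so that every TAC library was deeper and a batch cannot be told apart from the operation. The tissue labels were checked against markers: all 8 skeletal fiber markers were higher and all 7 cardiomyocyte markers lower in quadriceps than in heart, and the summed level of the cardiomyocyte markers was 3.21 to 5.53 RPKM (counts scaled by transcript length and library total) in quadriceps against 16335 to 17271 in heart. The heart libraries differed in Myl7, the atrial myosin light chain, which stood at 96.4, 7.35 and 0.156 RPKM. Nerve and Schwann cell markers summed to 3.30 to 4.36 RPKM in heart and 9.71 to 11.5 in quadriceps, with 2 of 8 tested higher, the myelin protein Mbp among them, and 2 lower. All 3 adipocyte markers were higher in quadriceps and uneven there, from 4.94 to 39.7 RPKM in sum, and both satellite cell markers were higher, at 0 RPKM in heart and 0.543 to 0.659 in sum in quadriceps. All 3 endothelial markers were lower, from 115 to 126 RPKM in sum in heart to 19.9 to 23.9 in quadriceps, as were 2 of 3 leukocyte and 2 of 4 fibroblast markers. The part of these differences in the results below was not tested.

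Upstream sequence of the receptor genes is shown because myogenic factors are known to act on these genes through the E-box, CANNTG, and junctional nuclei through the N-box, CCGGAA. Both were searched on both strands in the 250 bases before the transcription start (RefSeq, GRCm38.p6), which were at hand for 7 of the 10 members. The runs below end at the start site or short of it, exclude annotated exons, read 5′ to 3′ on the strand of the gene, and carry each match in capitals. They are Chrna1, chr2:73580339-73580588 (minus strand), Chrnb1, chr11:69795944-69796067 (minus strand), Chrne, chr11:70619217-70619444 (minus strand), Musk, chr4:58285712-58285959 (plus strand), and, from a member that was lower in quadriceps, Dok7, chr5:35056516-35056765 (plus strand).
Chrna1: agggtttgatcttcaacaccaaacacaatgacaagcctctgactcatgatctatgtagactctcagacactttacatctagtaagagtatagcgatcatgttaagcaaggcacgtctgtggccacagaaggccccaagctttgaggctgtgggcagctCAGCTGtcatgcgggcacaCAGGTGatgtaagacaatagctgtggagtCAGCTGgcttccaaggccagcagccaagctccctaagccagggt
Chrnb1: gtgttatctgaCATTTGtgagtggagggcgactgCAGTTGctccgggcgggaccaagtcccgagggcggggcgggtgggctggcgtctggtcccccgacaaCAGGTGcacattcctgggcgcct
Chrne: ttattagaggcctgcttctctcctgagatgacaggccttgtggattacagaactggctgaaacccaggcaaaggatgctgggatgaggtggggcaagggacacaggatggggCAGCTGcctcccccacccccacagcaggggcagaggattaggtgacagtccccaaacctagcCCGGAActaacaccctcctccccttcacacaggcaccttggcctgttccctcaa
Musk: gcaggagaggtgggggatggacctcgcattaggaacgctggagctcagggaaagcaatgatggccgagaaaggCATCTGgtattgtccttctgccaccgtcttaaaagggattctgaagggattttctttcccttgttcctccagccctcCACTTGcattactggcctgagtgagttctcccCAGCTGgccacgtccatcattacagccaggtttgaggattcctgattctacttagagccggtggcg
Dok7: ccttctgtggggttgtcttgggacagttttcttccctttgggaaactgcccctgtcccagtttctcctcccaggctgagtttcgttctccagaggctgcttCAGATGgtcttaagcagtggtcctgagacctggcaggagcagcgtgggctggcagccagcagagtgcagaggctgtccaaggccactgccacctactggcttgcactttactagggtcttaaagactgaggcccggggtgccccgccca

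Chrna1, Chrnb1 and Musk each had 3 E-box matches, as did Chrng, whereas Chrne, Dok7 and Ache each had 1. Over all 32851 windows of this kind, 66.2% held at least 1 such match and 12.2% at least 3. The nearest match to the start lay 44 bases before it in Chrna1, 29 in Chrnb1, 68 in Musk, 138 in Chrne and 149 in Dok7, counted from the 5′ end of the match. The form CAGCTG, singled out after the sequences were seen, occurred 2 times in Chrna1 and in Chrng and 1 time in Chrne and Musk; 13.0% of all windows held at least 1 and 1.26% at least 2. Chrne alone of the 7 had an N-box match, 76 bases before its start, on the strand shown, and 12.0% of all windows held one on either strand. These matches are letters in a window and were not tested as binding sites, and no E-box match overlapped an N-box match.

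The first comparison asked how the junction genes differ between skeletal and cardiac muscle. Transcripts of 3 receptor subunits and of Musk were at or near 0 counts in heart and clearly present in quadriceps, Chrnb1 and Ache were measurable in heart and several-fold higher in quadriceps, and Dok7 and Colq were higher in heart. Rapsn overlapped between the tissues in RPKM and was higher in quadriceps after TMM scaling. In bulk tissue, fewer cells that express a gene and less RNA per cell cannot be told apart. By edgeR's quasi-likelihood test after TMM scaling with Benjamini-Hochberg adjustment over all 24280 tested transcripts, 7 members were higher and 2 lower in quadriceps at an adjusted p under 0.05, where 32.2% of all tested transcripts were higher and 34.4% lower. Chrng was too low to be tested. Chrna1, Chrnd, Chrne and Musk passed the filter of more than 5 counts in at least 2 libraries through quadriceps alone. The count of members called therefore says little, and no adjusted p is given for Chrna1, Chrnd, Chrne and Musk. The stricter criterion of the study asks for more than 2 on the log2 scale toward quadriceps at an unadjusted p under 0.05. By this criterion 6 members were higher, against 7.00% of all tested transcripts. They include Chrna1, Chrnd, Chrne and Musk, to which only this direction was open, so that this count says little too. By the same criterion toward heart, added here, 0 members were lower, against 8.64% of all tested transcripts.

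The scaling matters for these tissues. With TMM the median log2 fold change of all tested transcripts was -0.06, and with library totals, on which RPKM also rests, it was -0.80. The whole-table split changed accordingly from 7828 transcripts higher and 8354 lower to 3241 higher and 15203 lower. With totals 6 members were higher and 2 lower, and the call of Rapsn was lost.

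**Figure D1:**
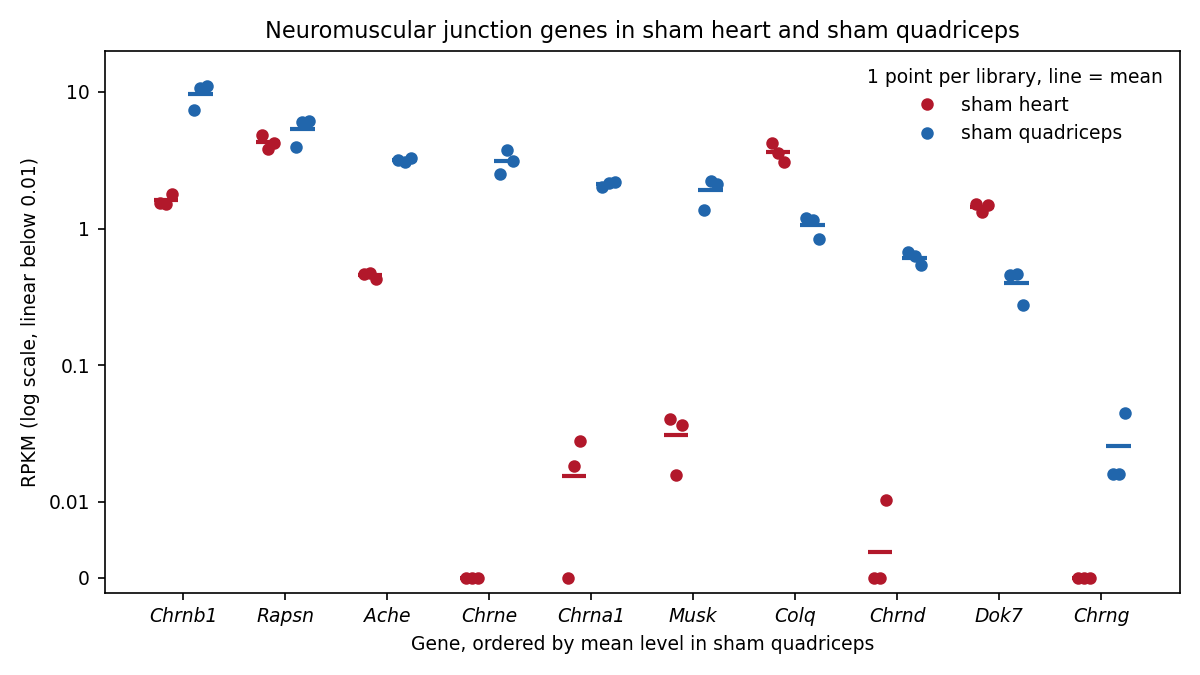
Level of each member in RPKM (y axis, log scale that turns linear below 0.01) in the 3 sham heart and 3 sham quadriceps libraries, with genes ordered along the x axis by their mean in quadriceps. Points are libraries and lines are means. Chrne, Chrna1, Musk and Chrnd lie at or near 0 in heart, the libraries of the 2 tissues overlap for Rapsn, and Colq and Dok7 are higher in heart.

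Chrna1, the subunit that carries the acetylcholine binding sites together with its neighbors (chr2:73563215-73580338, minus strand), gave counts of 0, 3 and 4 in heart libraries 1, 2 and 3, whereas quadriceps libraries 1, 2 and 3 gave 285, 307 and 220. On the RPKM scale these were 0, 0.0181 and 0.0280 in heart and 2.03, 2.16 and 2.18 in quadriceps. The quadriceps libraries were close to each other and far above every heart library, and groups without overlap in RPKM made up 80.0% of all tested transcripts. The summed counts, 812 against 7, gave a 237-fold higher TMM-scaled level in quadriceps (exact 95% counting interval 115 to 593) and a 141-fold higher level with library totals (68.3 to 353), intervals that cover counting error only. The fitted log2 fold change was 7.80 (SE 0.33, edgeR), and it was 7.23 without heart library 1 and 8.44 without heart library 3.

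Chrnd, the delta subunit (chr1:87190607-87200070, plus strand), was represented by counts of 0, 0 and 1 in heart but 65, 61 and 37 in quadriceps, or 0.675, 0.627 and 0.536 RPKM in the latter. The groups did not overlap. The ratio of summed counts was 334 with TMM, with an interval of 59.1 to 13260, since a single heart count stands in the denominator. The edgeR log2 fold change was 7.78 (SE 0.48), and 9.30 without heart library 3, which held that count.

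Chrne, the adult epsilon subunit (chr11:70614883-70619216, minus strand), had 0 counts in all 3 heart libraries and 129, 195 and 116 counts in quadriceps. The heart libraries allow up to 3 counts each, which correspond to 0.0496 to 0.0575 RPKM, against 2.51, 3.75 and 3.15 RPKM in quadriceps. Against 3 counts in each heart library, Chrne was at least 101-fold higher in quadriceps with TMM and at least 59.4-fold higher with totals. The gene 4930544D05Rik overlaps Chrne on the opposite strand, with counts of 0, 1 and 0 in heart but 27, 44 and 18 in quadriceps, and reads of such a pair are not separated unless counting used the strand, which is not stated in the sources used here.

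Chrng, the fetal gamma subunit (chr1:87204657-87212694, plus strand, next to Chrnd), had 0 counts in every heart library and 1, 1 and 2 in quadriceps. No library exceeded 3 counts, the limit that a count of 0 allows, and no difference was detectable at this depth. In quadriceps the mean was 0.0256 ± 0.0167 RPKM (SD, n = 3), against 3.13 ± 0.622 for Chrne.

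Chrnb1, the beta subunit (chr11:69784036-69795943, minus strand), differed from the other subunits in that heart also carried its transcript. Counts of 122, 123 and 126 in heart stood against 511, 749 and 548 in quadriceps. Per length these were 1.54, 1.50 and 1.78 RPKM in heart and 7.33, 10.6 and 11.0 RPKM in quadriceps, with all quadriceps libraries above all heart libraries. Chrnb1 was higher in quadriceps by 3.35 on the log2 scale (SE 0.21, adjusted p = 8.74e-07, edgeR with TMM) and by 2.58 with library totals.

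Within quadriceps, where all 4 adult subunits could be compared per length, Chrnb1 led and Chrnd was lowest. In the 3 libraries the RPKM of Chrnb1 was 3.62, 4.92 and 5.02 times that of Chrna1, and the RPKM of Chrne was 1.24, 1.74 and 1.44 times that of Chrna1. The corresponding ratio of Chrnd to Chrna1 was 0.333, 0.290 and 0.246. The order Chrnb1, Chrne, Chrna1 and Chrnd was the same in each library. As background, the assembled adult receptor holds more alpha than other subunits.

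Musk, the receptor tyrosine kinase that starts clustering (chr4:58285960-58374303, plus strand), had 6 listed transcripts, 5 of which had nearly the same counts. The transcript with the highest level in counts reached 5, 2 and 4 in heart but 149, 243 and 166 in quadriceps, or 0.0405, 0.0156 and 0.0363 RPKM against 1.37, 2.21 and 2.13 RPKM. The groups were far apart. The ratio of summed counts, 558 to 11, was 104 with TMM (57.6 to 209) and 61.8 with totals (34.3 to 125). The fitted log2 fold change was 6.67 (SE 0.37, edgeR). The shortest Musk transcript, with 51, 63 and 50 counts in quadriceps and 3, 0 and 2 in heart, was also higher. Its log2 fold change was 5.95 (SE 0.47, edgeR).

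Rapsn, the receptor scaffold rapsyn (chr2:91035620-91045729, plus strand), gave counts of 288, 236 and 224 in heart, close to the 209, 318 and 232 in quadriceps. In RPKM these were 4.83, 3.82 and 4.20 in heart and 3.98, 5.99 and 6.16 in quadriceps, so that the groups overlapped, with quadriceps library 1 below heart libraries 1 and 3. Rapsn thus had the highest mean level of the 10 members in heart. With TMM it was higher in quadriceps by 1.09 on the log2 scale (SE 0.21, 95% interval 0.62 to 1.56, adjusted p = 0.00127, edgeR). With library totals the difference was 0.32 (interval -0.098 to 0.745, adjusted p = 0.138), and limma on log2(RPKM + pseudocount) gave 0.26 to 0.30 with adjusted p-values from 0.166 to 0.187. Whether Rapsn counts as higher in quadriceps therefore depends on the scaling.

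Dok7, the activator of MuSK (chr5:35056766-35087839, plus strand), gave counts of 139, 125 and 121 in heart but only 37, 38 and 16 in quadriceps. The levels were 1.52, 1.32 and 1.48 RPKM in heart and 0.458, 0.466 and 0.277 RPKM in quadriceps, with every heart library above every quadriceps library. The log2 fold change from heart to quadriceps was -1.06 with TMM (SE 0.21, adjusted p = 0.00158, edgeR) and -1.81 with totals (adjusted p = 8.67e-05), so that the direction opposite to that of Musk held with both scalings.

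Colq, the collagen tail that anchors the esterase (chr14:31523082-31591343, minus strand), gave counts of 440, 389 and 286 in heart but 109, 108 and 55 in quadriceps, or 4.22, 3.60 and 3.07 RPKM against 1.19, 1.16 and 0.835 RPKM. The tissues did not overlap, and Colq was next to Rapsn at the top of the order in heart. The log2 fold change was -1.01 with TMM (SE 0.17, adjusted p = 0.000654, edgeR) and -1.76 with totals (adjusted p = 3.77e-05). Heart library 1, the highest in Colq, was also the highest in the atrial marker Myl7 given above, and its part in the level of Colq was not tested.

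Ache, acetylcholinesterase itself (chr5:137287519-137294466, plus strand), went the other way, from counts of 38, 40 and 31 in heart to 228, 223 and 168 in quadriceps. The levels were 0.465, 0.473 and 0.425 RPKM in heart and 3.17, 3.07 and 3.26 RPKM in quadriceps, and the quadriceps libraries were among the closest of any member. Ache was higher in quadriceps by 3.54 on the log2 scale (SE 0.14, adjusted p = 4.58e-08, edgeR with TMM) and by 2.79 with totals. Its other listed transcript had identical counts. Ache and Rapsn each overlap an annotated noncoding gene on the opposite strand, and Ache and Colq overlap further genes on their own strand, so that shared reads cannot be told apart; of these genes only Mir8116 in Ache was listed, at 0 to 4 counts.

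**Figure D2:**
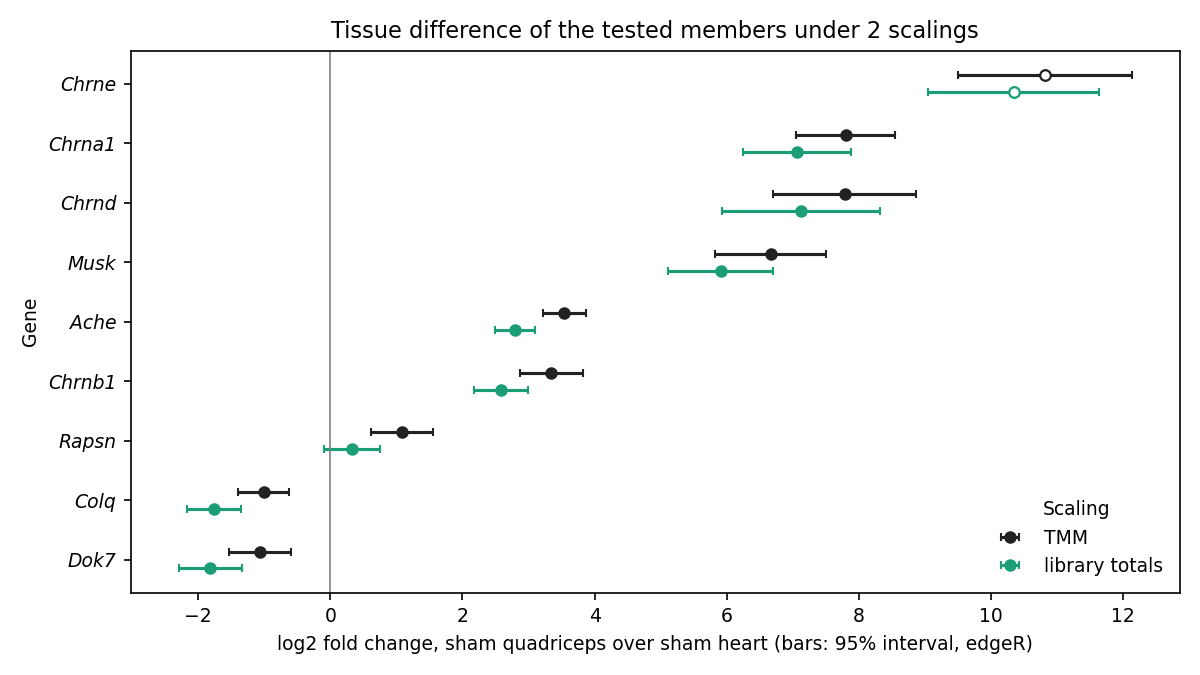
Log2 fold change of sham quadriceps over sham heart (x axis) for the 9 tested members (y axis), with 95% intervals from edgeR, under TMM scaling in black and library totals in green. The interval of Rapsn reaches below 0 with totals, Colq and Dok7 lie below 0 with both, and the open points of Chrne, which had 0 counts in heart, depend on the prior count of the fit and are no bound.

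By RPKM the order in quadriceps was Chrnb1, Rapsn, Ache, Chrne, Chrna1, Musk, Colq, Chrnd, Dok7 and Chrng, from 9.64 ± 2.01 (SD, n = 3) down to 0.0256 ± 0.0167. Ache and Chrne overlapped between libraries, as did Chrna1 and Musk, and the other neighbors did not. In heart the order began with Rapsn at 4.28 ± 0.509 and Colq at 3.63 ± 0.575, which overlapped, followed by Chrnb1 at 1.61 ± 0.152 and Dok7 at 1.44 ± 0.106, which overlapped too, and Ache at 0.454 ± 0.0258. Musk, Chrna1 and Chrnd followed at means of 0.0308, 0.0154 and 0.00341 RPKM, with overlap between Musk and Chrna1 and between Chrna1 and Chrnd, and Chrne and Chrng were at 0.

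Ratios of 2 members in the same library do not depend on the scaling, and 4 of them were formed after the levels had been seen. The RPKM of Rapsn was 3.13, 2.55 and 2.36 times that of Chrnb1 in heart, and 0.543, 0.563 and 0.562 times in quadriceps. The RPKM of Dok7 was 37.5, 84.2 and 40.8 times that of Musk in heart, where Musk rests on 2 to 5 counts, and 0.335, 0.211 and 0.130 times in quadriceps. Colq stood at 9.07, 7.61 and 7.22 times Ache in heart and at 0.374, 0.379 and 0.256 times in quadriceps. In each of these pairs the member named first exceeded the other in all heart libraries and fell short of it in all quadriceps libraries. The remaining ratio, Rapsn to Dok7, was above 1 in both tissues, at 3.18, 2.90 and 2.84 in heart and 8.67, 12.8 and 22.3 in quadriceps. For each of the 4 the exact two-sided permutation test gave p = 0.1, the smallest p that 3 libraries against 3 allow, so that the test cannot pass 0.05. With the TAC ratio given below, 5 ratios were tested in all, and the Benjamini-Hochberg adjusted p of each was 0.1 by the exact test too.

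**Figure D3:**
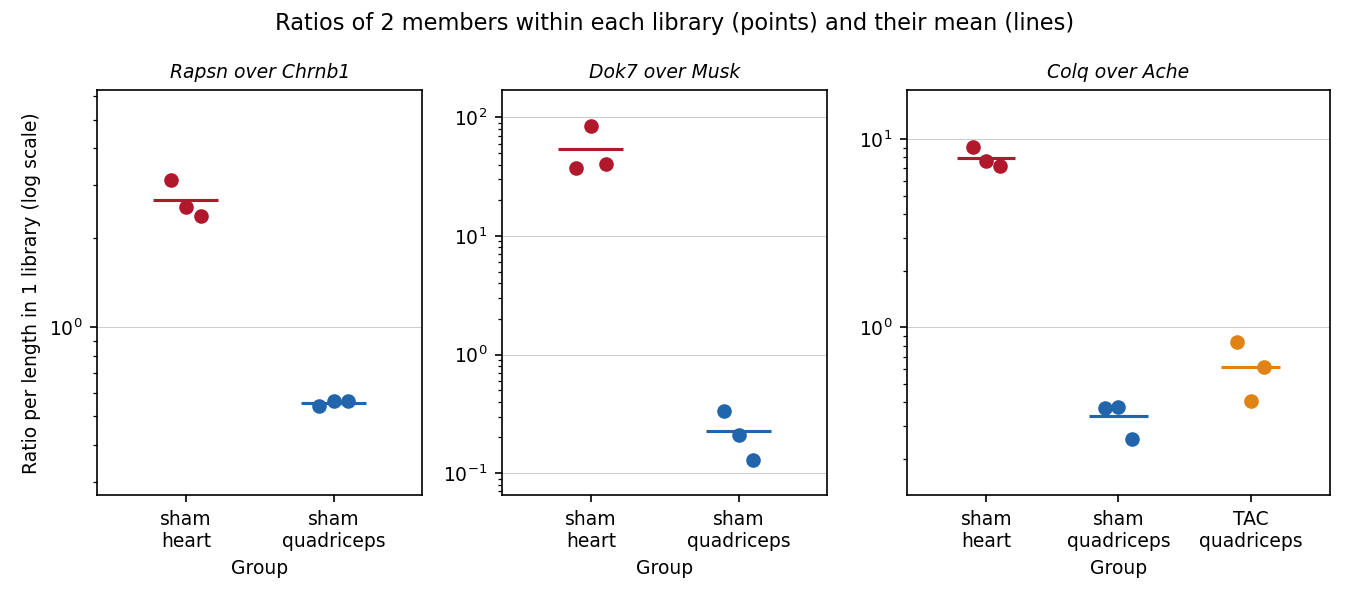
Ratio of the counts per transcript length of 2 members in the same library (y axis, log scale) by group, for Rapsn over Chrnb1, Dok7 over Musk and Colq over Ache. Points are libraries and lines are means. Every heart library lies above 1 and every sham quadriceps library below 1 in all 3 panels, and Colq over Ache in TAC quadriceps runs from 0.405 to 0.834.

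The genes that meet these proteins from outside the fiber or below the membrane were taken as a list of 26, all of which were tested. In quadriceps 8 were higher and 14 lower than in heart, with a median log2 fold change of -0.55 against -0.06 over all tested transcripts, and with library totals 4 were higher and 18 lower. Agrn, which encodes agrin, was lower in quadriceps, with 3.73, 5.30 and 4.76 RPKM in heart and 0.672, 0.590 and 0.548 in quadriceps (log2 fold change -2.17, SE 0.15, adjusted p = 1.37e-06, edgeR). Motor nerve cell bodies, the source of neural agrin, lie outside the tissue sampled. Lrp4, the agrin receptor that partners MuSK, was called higher with TMM at 0.63 (adjusted p = 0.00283) and was at -0.12 with totals (adjusted p = 0.384).

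Among the rises in that list were those of Pak1 at 4.69 on the log2 scale, a kinase downstream of MuSK, and Dvl1 at 1.27, a MuSK-binding adaptor. The neuregulin receptor Erbb4 fell by 4.52, besides Agrn, and these directions held with totals for all 4 of these genes. The ligand Nrg1 gave counts of 14, 18 and 9 in heart but 0, 1 and 0 in quadriceps, so that it passed the filter through heart alone.

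Of 11 further nicotinic subunits, which mostly serve neurons, 4 reached the filter. Chrna10 and Chrna2 were higher in quadriceps by 1.76 and 1.32 on the log2 scale, and Chrna2 lost its call with totals (adjusted p = 0.185). Chrna4 gave counts of 0, 1 and 1 in heart but 15, 7 and 6 in quadriceps, and Chrnb2 of 10, 13 and 14 in heart but 1, 2 and 2 in quadriceps, so that each passed the filter through 1 tissue alone. Summed over the 11, the level was 0.982 to 1.32 RPKM in heart and 1.82 to 2.14 in quadriceps. Of 5 muscarinic receptors 2 reached the filter, both through heart alone. Chrm2, the cardiac muscarinic receptor, gave counts of 1951, 2085 and 1354 in heart but 1, 0 and 0 in quadriceps, and Chrm3 gave 8, 4 and 7 in heart and 0 in each quadriceps library.

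Among 6 genes of acetylcholine handling 3 were tested. Prima1, the membrane anchor that competes with Colq for acetylcholinesterase, gave counts of 3, 4 and 2 in heart but 8, 8 and 4 in quadriceps, and so passed the filter through quadriceps alone. Bche, butyrylcholinesterase, was lower with -0.82 (adjusted p = 0.00521), and the choline transporter Slc44a1 was at 0.03 (adjusted p = 0.837). Chat, Slc18a3 and Slc5a7, which in nerve endings make acetylcholine, load it into vesicles and take up choline, did not reach the filter.

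A list of 11 genes linked to denervation in muscle, of which 10 were tested, had 6 higher and 2 lower in quadriceps with TMM. Of all tested transcripts, 32.2% were higher and 34.4% lower with that scaling. With totals 5 genes of the list were higher and 3 lower, where 3241 of all 24280 tested transcripts were higher and 15203 lower. Dach2, Myod1 and Myog, all nuclear regulators, passed the filter through quadriceps alone, and Myog gave counts of 0, 1 and 1 in heart but 32, 65 and 40 in quadriceps. Hdac9 was lower with -1.58, while Ncam1, the adhesion molecule of denervated fibers, was at 0.01 (SE 0.29, adjusted p = 0.973) with TMM and was called lower with totals, at -0.74 (adjusted p = 0.0403).

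**Figure D4:**
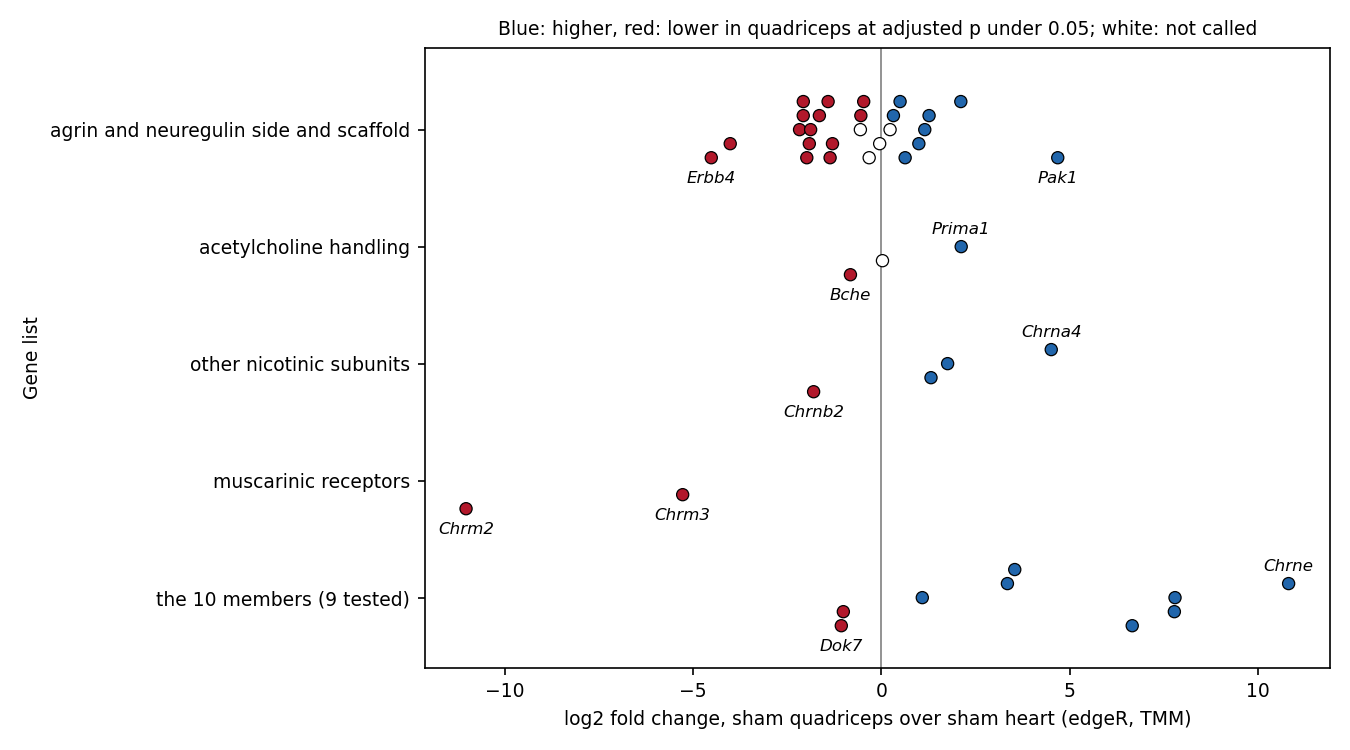
Log2 fold change of sham quadriceps over sham heart (x axis, edgeR with TMM) for the tested members and the tested genes of 4 lists (y axis), 1 point per gene, with the extremes named. Blue points were higher and red points lower at an adjusted p under 0.05, white points were not called, and points of genes at or near 0 counts in a tissue depend on the prior count and had entered the test through the other tissue alone. Both tested muscarinic receptors lie below 0, and 7 of the 9 tested junction genes lie above it.

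By likeness of profile, the 3 genes outside the members nearest to the mean centered log2 CPM profile of Chrna1, Chrnb1, Chrnd and Chrne over the 6 sham libraries were Stim1, Atp1b2 and Rbfox1. Their Euclidean distances were 0.133, 0.167 and 0.171 on the log2 scale (offset 0.5), among 14906 genes. The 4 subunits themselves lay at 0.438 (Chrne), 0.542 (Chrnb1), 1.25 (Chrnd) and 1.27 (Chrna1), Musk at 0.635 and Ache at 0.726, while Rapsn, Dok7 and Colq lay at 3.05, 5.34 and 5.42. The offset shortens the distance between tissues for genes near 0, and with 2 tissues this measure mostly ranks genes by the size of the tissue difference.

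The second comparison asked whether the junction genes change in the quadriceps of mice with TAC, the group whose sample titles name cachexia. Ache and Colq could be tested, and neither passed an adjusted p under 0.05 with TMM over the listed genes, where 17.7% of the 586 tested genes were higher and 11.9% lower. Ache was below its sham values in TAC libraries 1 and 4 and not in TAC library 2 after TMM scaling, and Colq changed its sign with the scaling. The median log2 fold change of all 586 genes was 0.03 with TMM and -0.63 with library totals. Totals, and with them RPKM, were used for 5 of the 6 libraries, without TAC library 4. The TAC library numbered 4 is named as in the table, since the labels number the TAC samples otherwise.

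Ache had 228, 223 and 168 counts in sham quadriceps libraries 1, 2 and 3 and 92, 288 and 132 in TAC libraries 1, 2 and 4. TMM-normalized counts, scaled to the mean library of the 6, were 185, 225 and 231 in sham and 89.1, 282 and 132 in TAC. TAC library 2 exceeded all sham libraries and the other two TAC libraries were below them, so that the groups overlapped (exact two-sided permutation p = 0.5). The log2 fold change was -0.35 with TMM (SE 0.40, 95% interval -1.27 to 0.57, adjusted p = 0.543, edgeR).

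On the RPKM scale the sham values of Ache were 3.17, 3.07 and 3.26 and those of TAC libraries 1 and 2 were 0.858 and 2.67. Both TAC libraries lay below all sham libraries. The exact two-sided permutation p was 0.2, the smallest that 3 against 2 allow when the smaller tail is doubled, as here. On this scale 66.2% of the tested genes were without overlap in either direction. With library totals the log2 fold change was -0.84 (SE 0.45, interval -1.90 to 0.21, adjusted p = 0.168, edgeR), where TMM on these 5 libraries gave -0.32 (adjusted p = 0.602).

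A single library decided the call for Ache. Without TAC library 2 it was lower by edgeR with TMM, at -0.95 (SE 0.28, adjusted p = 0.0367), and without TAC library 1 it was at -0.12 (adjusted p = 0.823). Over the 16 alternatives tried the adjusted p ranged from 0.0367 to 0.876, with a negative sign in each. The sham libraries were tight, with an SD of 24.9 normalized counts around a mean of 214, and the TAC libraries wide, with an SD of 101 around 168.

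Colq had 109, 108 and 55 counts in sham and 98, 149 and 104 in TAC quadriceps. The TMM-normalized counts of 88.6, 109 and 75.6 in sham and 94.9, 146 and 104 in TAC overlapped (exact two-sided permutation p = 0.3). In RPKM the sham values of 1.19, 1.16 and 0.835 overlapped those of TAC libraries 1 and 2, at 0.716 and 1.08 (exact permutation p = 0.4). The log2 fold change was 0.33 with TMM (SE 0.27, interval -0.28 to 0.95, adjusted p = 0.392, edgeR) and -0.24 with totals (adjusted p = 0.552), so that its sign depends on the scaling. A difference in either direction was not detectable. The interval with TMM leaves room for a rise of up to 0.95 on the log2 scale. With totals the interval was -0.99 to 0.50, which leaves room for a fall as well.

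**Figure D5:**
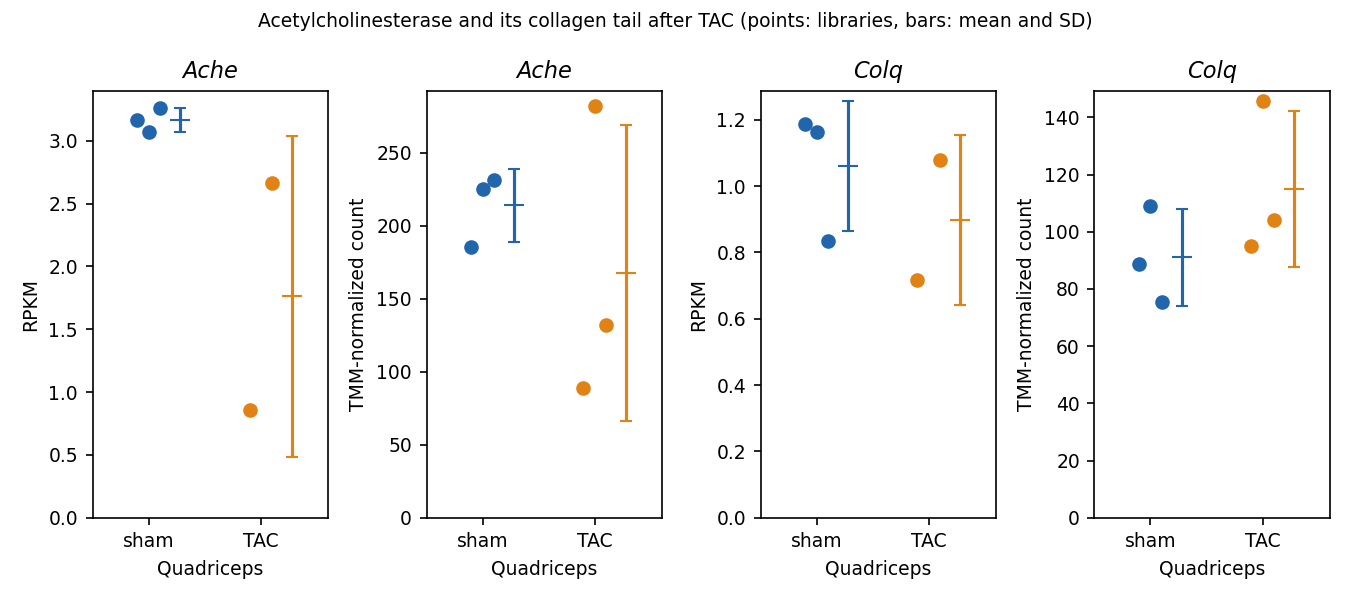
Ache and Colq in sham and TAC quadriceps, as RPKM and as TMM-normalized counts (y axes, from 0), with libraries as points and the mean and SD beside them. RPKM is shown for TAC libraries 1 and 2. In RPKM, TAC library 2 lies at 2.67, below the sham values of Ache of 3.07 to 3.26, while after TMM scaling that library, at 282, is the highest of all 6.

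The ratio of Colq to Ache within a library, which no scaling alters, was 0.374, 0.379 and 0.256 in sham and 0.834, 0.405 and 0.617 in TAC quadriceps. The means were 0.337 ± 0.0696 and 0.619 ± 0.214 (SD, n = 3 each), with every TAC library above every sham library and TAC library 2 only just so. The exact two-sided permutation p was 0.1, the smallest this design allows, and the ratio was chosen after the values were seen.

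Of the 26 genes on the agrin and scaffold side, 5 were in this table. With TMM, Erbb3, a neuregulin receptor, was higher in TAC by 1.01 on the log2 scale (adjusted p = 0.0374, edgeR), Agrn by 0.91 (adjusted p = 0.0224) and Lamb2, a laminin chain of the synaptic basal lamina, by 0.68 (adjusted p = 0.0456). None of these 3 was called with library totals, where they stood at 0.25, 0.10 and -0.13 with adjusted p-values of 0.617, 0.772 and 0.632, so that Lamb2 changed its sign, while Nid2 was called lower there with -1.09 (adjusted p = 0.0221). The remaining gene of the 5, Hspg2, was at 0.25 with TMM (adjusted p = 0.526). Bche was at 0.21 (adjusted p = 0.721). Beside these, 2 of 3 listed fibroblast markers were lower in TAC, Col1a1 with -3.31 and Col3a1 with -3.95 (adjusted p = 0.000557 for both, edgeR). Dcn, the most abundant of the 3, was not called, at 0.17 with TMM (adjusted p = 0.601). The endothelial marker Pecam1 was higher in TAC by 0.63 with TMM (adjusted p = 0.0341, edgeR) and at -0.02 with totals (adjusted p = 0.948). Their part in the values of Ache and Colq was not tested.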

How the data were processed

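RNA-seq of 9 mouse libraries was used, in groups given by the sample labels. Reads were trimmed with Trim Galore, aligned with STAR to mm10 and counted with Rsubread on RefSeq transcripts, and the authors deposited raw counts per transcript. RPKM values, also deposited by the authors, are these counts per transcript length and library total, which allowed the totals to be recovered. Columns with fold changes and p-values of the authors were not used, and neither was 1 column of a single library, the RPKM column numbered 4 in the TAC table, so that totals and RPKM cover 5 libraries there. Totals are sums over transcripts and count shared reads repeatedly.

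A filter of over 5 counts in 2 or more libraries preceded the quasi-likelihood test of edgeR 4.0.16 (R 4.3.3, TMM, Benjamini-Hochberg over all tested). SE is the log2 fold change divided by the square root of F. A gene with several transcripts was represented by the one with the highest mean count. The TAC table is a selected set of extracellular genes, so its TMM factors refer to these genes. Alternatives were library totals, DESeq2 1.42.0, limma 3.58.1 on log2(RPKM + 0.5, 1 or 0.1), other filters, a replicate block and leaving out each library. Replicates differed beyond counting noise (lowest chi-square per df 7.10), and none was treated as a duplicate. Positions are from GENCODE on GRCm38. Named were all 10 members, list genes with the largest calls (up to 3 each way) and the 3 nearest profiles; Lrp4, Prima1, Slc44a1, Ncam1, Nid2, Hspg2 and Bche were named after their values were seen, and some genes the rule names are not reported here. The members and lists were chosen with earlier results of these data known. The procedure was tested on simulated data.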

Additional observations from a re-analysis of the deposited data

How the results depend on the processing

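Of the 9 members tested between the tissues, 8 kept their direction and their call at an adjusted p under 0.05 in every alternative fit that held them. For Chrna1, Chrnd, Chrne and Musk, which entered the test through quadriceps alone, this says little. Rapsn lost its call with library totals (0.32) and with limma on RPKM (0.28, 0.26 and 0.30 for pseudocounts of 0.5, 1 and 0.1). With at least 10 counts in every library, 3 members were left as higher (Ache, Chrnb1 and Rapsn). By the criterion of the study, which asks only for higher levels in quadriceps, Rapsn was not called. By the same criterion toward heart, added here, 0 members were lower, and Dok7 and Colq were not called. Leaving out each library in turn kept 7 members higher and 2 lower. Over all tested transcripts, 7828 higher and 8354 lower became 3241 and 15203 with totals. They became 3158 and 15149, 3110 and 14834, and 3177 and 15320 with limma at pseudocounts of 0.5, 1 and 0.1. With 1 transcript per gene they became 4744 and 5059. By the criterion of the study 1699 were higher, and by the same criterion toward heart 2097 were lower. In the TAC comparison, 104 higher and 70 lower became 20 and 180 with totals, 14 and 188, 12 and 158, and 16 and 192 with limma at the same pseudocounts (5 libraries each), and 67 higher by the criterion of the study. Leaving out each library gave 25 to 113 higher and 35 to 102 lower. Ache ranged from -0.95 to -0.12 when each library was left out. Colq reversed, with no call, with totals (-0.24) and with limma (-0.16, -0.12 and -0.23). Apart from the scaling and from the transcripts tested, the cause of these changes was not tested. Deviations from the group mean had correlations of 0.0545, -0.0528 and 0.0352 between same-numbered heart and quadriceps libraries, and 0.136 and -0.0439 between sham and TAC. With 3 libraries or fewer in a group, these values cannot show whether the replicate numbers pair the libraries. With the replicate block, 7 members were still higher and 2 lower between the tissues. In TAC the replicate block, on the 4 libraries numbered 1 and 2, gave 56 genes higher and 62 lower, against 49 and 39 without it in a fit added after the data were seen, with Ache at -0.35 and Colq at 0.26, neither called. Depth limits Chrng, Chrnd and Chrne in heart, where counts were 0 or 1.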
